A study of Mus musculus with 9 samples.

Results

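Fatty acid uptake and PPAR genes were followed in CD11b+ cells of injured mouse liver: Cd36, Lpl, Fabp4, Pparg, Ppard, Plin2, Cpt1a, Pdk4, Angptl4 and Acadl. The 10 genes were named by symbol, and each was found once among the 45777 gene IDs of the files. CD11b marks the surface of the myeloid lineage, which includes macrophages, monocytes and neutrophils. Every mouse received acetaminophen (APAP) into the peritoneum, a model of acute liver failure, and livers were taken 48 hours later. The control group received PBS (PBS group). The other groups received SIRP-EV, extracellular vesicles given into a vein 8 hours after APAP. Their source was HEK, a line derived from human embryonic kidney, in the HEK-EV group and MSC, commonly mesenchymal stem or stromal cells, in the MSC-EV group. SIRP is not spelled out in the labels. Strain, age, sex, dose and batch are not given in the sources used here, no uninjured mice and no vesicles without SIRP were analysed here, and replicate numbers carry no stated day or cage. Each group held 3 samples, and since nothing says that they came from separate animals, p-values measure the spread between these samples.

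Macrophages that clear dead cells or take up lipoproteins receive large amounts of fatty acid. Lipoprotein lipase frees fatty acids from triglyceride at the cell surface, CD36 carries them across the membrane, and small binding proteins such as FABP4 hold them in the cytosol, from where they are stored in droplets or burned in mitochondria. Fatty acids and their oxidised forms also bind PPAR receptors, transcription factors that pair with RXR on repeated AGGTCA half-sites and switch on many of these same genes.

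CD11b+ identity was checked first, with transcript levels as TPM, a unit scaled for gene length and for the total of each sample. A list of 10 general myeloid genes, Itgam among them, summed to between 23107 and 28825 TPM in every sample, of which Lyz2 alone made up 13329 to 18741 TPM. Of the 10, Itgb2 and Ptprc fell in MSC-EV against PBS, by 0.49 and 0.46 on the log2 scale (limma adjusted p = 0.0218 and 0.0271). Cd68 went the other way. It did not pass against PBS (0.32, limma adjusted p = 0.0513) and rose in MSC-EV against HEK-EV (0.33, limma adjusted p = 0.0443). Itgam, which encodes CD11b, averaged 330 ± 44.3 TPM in PBS, 372 ± 54.1 in HEK-EV and 229 ± 29.6 in MSC-EV (SD, n = 3), did not pass against PBS (-0.53, limma adjusted p = 0.0553) and fell in MSC-EV against HEK-EV (-0.70, limma adjusted p = 0.0257). Read counts were not used here, so the depth is unknown and counting error is not given. A relative measure of it, coverage divided by FPKM, was lowest in PBS replicate 1 (5.28), between 6.06 and 6.47 in the other PBS samples and the HEK-EV samples, and between 6.58 and 6.85 in the MSC-EV samples. Transcripts of pancreatic acinar cells were high in HEK-EV replicate 2, MSC-EV replicate 1 and MSC-EV replicate 3, whose 20 acinar markers summed to between 156 and 3278 TPM, against 13.3 to 40.3 TPM in the other 6 samples.

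PBS replicate 1 stood apart from the other PBS samples in several of the 10 genes. It was the highest PBS sample in 7 of the 10, against 56.7% of the 13820 genes tested. In Cd36, Fabp4, Plin2 and Angptl4 it was also at least 1.5 times the mean of the other PBS samples, at 1.95, 1.72, 1.55 and 1.54 times. That was so for 6.81% of the genes tested. Its 10 Ly6C-high monocyte markers summed to 6473 TPM, against 12439 and 12950 TPM in the other PBS samples. The part of depth or of cell makeup in this was not tested.

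The promoter windows of 3 genes that stand for uptake (Cd36), storage (Plin2) and oxidation (Cpt1a) are shown as an example of each role, and because each window holds the half-site that PPAR receptors read. Each is 300 bases, 250 before and 50 after a RefSeq transcription start of GRCm38.p6, written 5′ to 3′ on the gene's own strand, with the half-site in capitals. It reads TGACCT, the reverse complement of AGGTCA, in all 3. The Cd36 window is chr5:17835847-17836146 (minus strand, inside the span of Cd36 in the files), that of Plin2 is chr4:86670010-86670309 (minus strand) and that of Cpt1a is chr19:3323051-3323350 (plus strand, also inside the span of its gene).
Cd36: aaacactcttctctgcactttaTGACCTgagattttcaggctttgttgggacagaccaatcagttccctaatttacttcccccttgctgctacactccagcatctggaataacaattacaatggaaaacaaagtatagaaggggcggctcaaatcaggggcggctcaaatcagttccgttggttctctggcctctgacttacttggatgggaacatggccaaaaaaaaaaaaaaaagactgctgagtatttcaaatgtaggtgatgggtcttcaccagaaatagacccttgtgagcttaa
Plin2: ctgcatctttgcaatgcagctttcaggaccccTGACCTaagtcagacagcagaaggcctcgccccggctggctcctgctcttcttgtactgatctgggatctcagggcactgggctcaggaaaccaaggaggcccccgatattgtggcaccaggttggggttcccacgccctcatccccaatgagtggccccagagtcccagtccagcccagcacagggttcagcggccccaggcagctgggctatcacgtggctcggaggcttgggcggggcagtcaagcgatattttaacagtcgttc
Cpt1a: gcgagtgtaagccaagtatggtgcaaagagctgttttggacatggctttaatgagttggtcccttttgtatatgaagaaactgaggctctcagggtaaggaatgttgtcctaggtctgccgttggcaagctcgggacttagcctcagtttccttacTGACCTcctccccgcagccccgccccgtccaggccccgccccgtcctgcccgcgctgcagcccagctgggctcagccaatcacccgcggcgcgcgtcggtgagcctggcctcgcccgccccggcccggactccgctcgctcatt

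RefSeq windows were matched for 7 of the 10 genes, and those of Lpl, Fabp4 and Angptl4 were not used here. Pparg has 3 windows, which makes 9 in all, and 5 of the 9 hold AGGTCA on either strand, those of Cd36, Plin2 and Cpt1a and 2 of Pparg. Among all 32851 windows of the same length 16.3% hold it. The windows of Acadl, Pdk4 and Ppard and the third of Pparg do not contain these letters. The full direct repeat AGGTCANAGGTCA was in 0.0396% of all windows, and AGGNCANAGGNCA, which includes it, was in 0.381%. Neither was in any of the 9. A match is a description of the letters and not evidence of a bound site.

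The 10 genes covered a wide range of levels. Averaged over the 9 samples, Lpl was at 1083 TPM and Plin2 at 709.5 TPM, above 99.0% and 98.4% of the 13820 genes tested, those with at least 1 TPM in at least 3 samples. Cd36 (350.3 TPM) and Fabp4 (133 TPM) followed. Cpt1a, Pparg and Acadl lay at 103, 86.0 and 83.5 TPM, Ppard at 24.8, Angptl4 at 7.17 and Pdk4 at 1.16 TPM. In the PBS group the values of Fabp4, Cpt1a and Pparg overlapped one another, so their order there is not resolved. Those of Acadl overlapped Pparg and lay below every Fabp4 and Cpt1a value. In the MSC-EV group Fabp4 lay above all of these, at 168 TPM or more. All 10 genes passed the filter on low values, Pdk4 through 6 of the 9 samples.

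Cells of mice given MSC vesicles were first set against those of the PBS group. Fabp4 and Lpl rose, by 1.85 and 1.43 times, and Cd36 was 1.78 times as high without passing the test. The receptors Pparg and Ppard and the oxidation genes Cpt1a and Acadl differed by 0.16 or less on the log2 scale in either direction. Of the 10 genes, 2 passed an adjusted p under 0.05, both higher, and 706 of the 13820 genes tested did, 5.11% (1.86% higher and 3.25% lower). The median of the 10 differences was 0.21 on the log2 scale, with 6 above and 4 below 0, against 0.01 over all genes tested. Differences are of log2(TPM + 1), which understates the change of genes near 1 TPM, with the standard error (SE) and Benjamini-Hochberg adjusted p of limma.

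Cd36, the fatty acid and oxidised lipoprotein receptor (gene ID 12491, chromosome 5, 17781690 to 17888959), measured 423, 231 and 202 TPM in the PBS samples. It measured 247, 309 and 293 TPM in the HEK-EV samples. It measured 463, 487 and 497 TPM in the MSC-EV samples, each above every PBS and HEK-EV sample. The PBS group was the most spread, with PBS replicate 1 closer to the MSC-EV samples than to its own group. The difference from PBS was 0.83 (SE 0.227, adjusted p = 0.0674) and that from HEK-EV 0.77 (SE 0.227, adjusted p = 0.0773), and neither passed. Without PBS replicate 1 both passed, at 1.15 (adjusted p = 0.00126) and 0.77 (adjusted p = 0.00496). With depth as a covariate they were 1.54 (adjusted p = 0.0075) and 1.09 (adjusted p = 0.00633). Against PBS these were the only 2 of 18 alternatives in which Cd36 was called. The 2 are not independent, since the depth measure was lowest in PBS replicate 1 (5.28). In the MSC-EV samples it lay above all others (6.58 to 6.85), so the covariate is also tied to the group. Over all 18 the difference was between 0.62 and 1.54, with adjusted p from 0.00126 to 0.252.

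Lpl, lipoprotein lipase (gene ID 16956, chromosome 8, 68880555 to 68906932), measured 1138, 849.6 and 782 TPM in the PBS samples. The HEK-EV samples were at 1049, 966 and 1040 TPM, and the MSC-EV samples at 1296, 1383 and 1241 TPM. The MSC-EV samples lay above the 6 others, and the HEK-EV samples lay within the range of the PBS samples. Lpl rose in MSC-EV over PBS by 0.52 (SE 0.123, adjusted p = 0.0463). Its difference from HEK-EV of 0.36 (SE 0.123, adjusted p = 0.117) did not pass. The call against PBS was kept without PBS replicate 1 (0.68) and lost without each of the other 8 samples in turn (adjusted p from 0.0597 to 0.181), with differences of 0.41 to 0.56. It was also lost without the filter (0.103), with the replicate block (0.059), with only the 6 samples compared (0.0867) and with the acinar term (0.158). Without PBS replicate 1 the difference from HEK-EV passed (adjusted p = 0.0132).

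Fabp4, the cytosolic fatty-acid-binding protein of macrophages and adipocytes (gene ID 11770, chromosome 3, 10204342 to 10208616), measured 152, 84.3 and 91.6 TPM in the PBS samples. The HEK-EV samples were at 84.2, 91.6 and 99.2 TPM. The MSC-EV samples were at 215, 209 and 168 TPM, above all the others. Fabp4 rose in MSC-EV over PBS by 0.89 (SE 0.196, adjusted p = 0.038) and over HEK-EV by 1.09 (SE 0.196, adjusted p = 0.0233). It was the only one of the 10 genes to pass in both. The call against PBS was lost without PBS replicate 2 (adjusted p = 0.151), PBS replicate 3 (0.129), HEK-EV replicate 2 (0.0641), MSC-EV replicate 1 (0.141) or MSC-EV replicate 2 (0.114), with differences of at least 0.73. It was also lost without the filter (0.0898), with the replicate block (0.0544) and with only the 6 samples compared (0.0747). Without PBS replicate 1 the difference was 1.15 (adjusted p = 0.00152). The call against HEK-EV was lost without any 1 of the 3 HEK-EV samples or without MSC-EV replicate 1 or 2 (adjusted p from 0.0597 to 0.1), with differences of at least 1.03, and without the filter (0.0542). With the acinar transcripts as a term neither passed, at 0.93 (adjusted p = 0.165) and 1.11 (adjusted p = 0.0572). HEK-EV replicate 1, at 40.3 TPM of acinar markers, counted as low in that term, although acinar genes at 0 in every PBS sample were found in it (Ctrb1 4.43 and Pnlip 3.96 TPM). The term with that sample counted as high was not fitted.

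**Figure D1:**
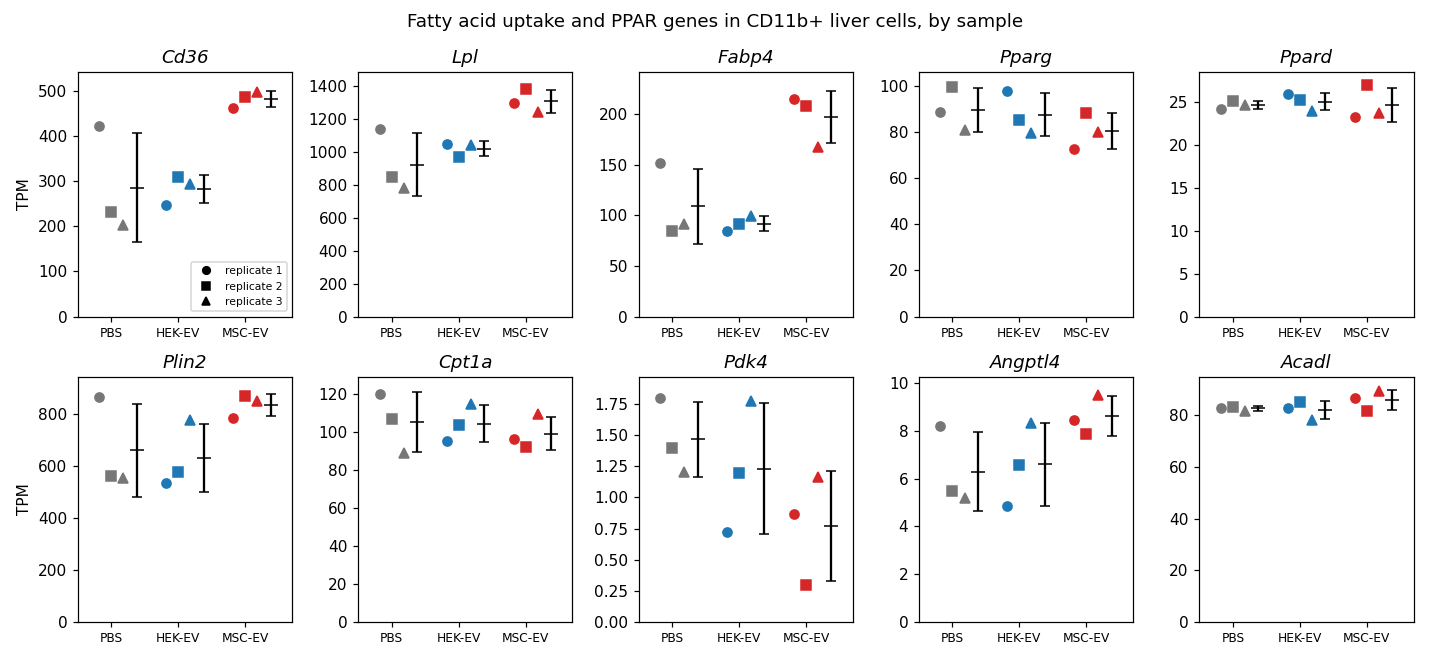
TPM (vertical axes, each from 0) of the 10 genes in every sample of the PBS (grey), HEK-EV (blue) and MSC-EV (red) groups, with the mean and SD of 3 samples as a black bar. In Cd36, Lpl and Fabp4 all 3 MSC-EV samples lie above the other 6, and PBS replicate 1 lies above the other PBS samples.

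Neither receptor passed in any comparison. Pparg, the receptor that drives lipid uptake genes in macrophages (gene ID 19016, chromosome 6, 115360879 to 115490404), measured 88.9, 99.8 and 80.8 TPM in the PBS samples. HEK-EV samples gave 97.8, 85.4 and 79.7 TPM, and MSC-EV samples 72.9, 88.5 and 80.1 TPM. The 3 groups overlapped. The difference between MSC-EV and PBS was -0.16 (SE 0.104, adjusted p = 0.421), with a 95% confidence interval of -0.39 to 0.08. Ppard, the more widely expressed receptor (gene ID 19015, chromosome 17, 28232754 to 28301469), measured 24.2, 25.2 and 24.7 TPM in the PBS samples. HEK-EV samples gave 25.9, 25.2 and 24.0 TPM, and MSC-EV samples 23.3, 27.0 and 23.7 TPM, again overlapping. Its difference was -0.00414 (SE 0.0706, adjusted p = 0.982), with an interval of -0.16 to 0.15. Ppard overlaps 1 other annotated gene. Ppara, the receptor of hepatocytes, was below the filter, at 0.185 TPM or less in every sample.

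Plin2, the coat protein of lipid droplets (gene ID 11520, chromosome 4, 86626910 to 86670217), measured 868, 564 and 553 TPM in the PBS samples. HEK-EV samples gave 537, 579 and 779 TPM, and MSC-EV samples 786, 869 and 850.2 TPM. The MSC-EV samples were all above the HEK-EV samples and overlapped PBS through PBS replicate 1. Neither the difference from PBS (0.37, SE 0.183, adjusted p = 0.268) nor that from HEK-EV (0.42, SE 0.183, adjusted p = 0.204) passed. Without PBS replicate 1 the former was 0.58 and passed (adjusted p = 0.0301). With depth as a covariate it was 0.84 and did not pass (adjusted p = 0.0521), while that from HEK-EV was 0.63 and passed (adjusted p = 0.0434). Plin2 overlaps 1 predicted gene.

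Angptl4, a secreted inhibitor of lipoprotein lipase that PPAR receptors induce (gene ID 57875, chromosome 17, 33774900 to 33781575), measured 8.21, 5.49 and 5.17 TPM in the PBS samples. HEK-EV samples gave 4.86, 6.58 and 8.33 TPM, and MSC-EV samples 8.46, 7.86 and 9.52 TPM. The groups overlapped, and the difference between MSC-EV and PBS was 0.42 (SE 0.194, adjusted p = 0.236). Without PBS replicate 1 it was 0.60 (adjusted p = 0.0621). Pdk4, the kinase that turns off pyruvate dehydrogenase (gene ID 27273, chromosome 6, 5483351 to 5496278), was close to the filter throughout. It measured 1.80, 1.40 and 1.21 TPM in the PBS samples. HEK-EV samples gave 0.722, 1.2 and 1.78 TPM, and MSC-EV samples 0.864, 0.292 and 1.16 TPM. Its MSC-EV samples were all below the PBS samples, a difference of -0.50 (SE 0.232, adjusted p = 0.235) that did not pass. Angptl4 and Pdk4, both PPAR-induced genes, had differences of opposite sign.

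Neither oxidation gene passed in any comparison. Cpt1a, the gate enzyme for entry of fatty acids into mitochondria (gene ID 12894, chromosome 19, 3322326 to 3385735), measured 120.1, 107 and 88.8 TPM in the PBS samples. HEK-EV samples gave 95, 103 and 114 TPM, and MSC-EV samples 96.1, 92.0 and 109 TPM, and all 3 groups overlapped. The difference between MSC-EV and PBS was -0.08 (SE 0.115, adjusted p = 0.743), with an interval of -0.34 to 0.18. Acadl, the dehydrogenase of long-chain fatty acids (gene ID 11363, chromosome 1, 66830839 to 66863309), lay between 78.2 and 89.3 TPM in all 9 samples. Its difference was 0.05 (SE 0.0547, adjusted p = 0.615), with an interval of -0.07 to 0.18. Cpt1a overlaps 1 predicted gene and Acadl 2, which leaves their values uncertain to that extent.

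**Figure D2:**
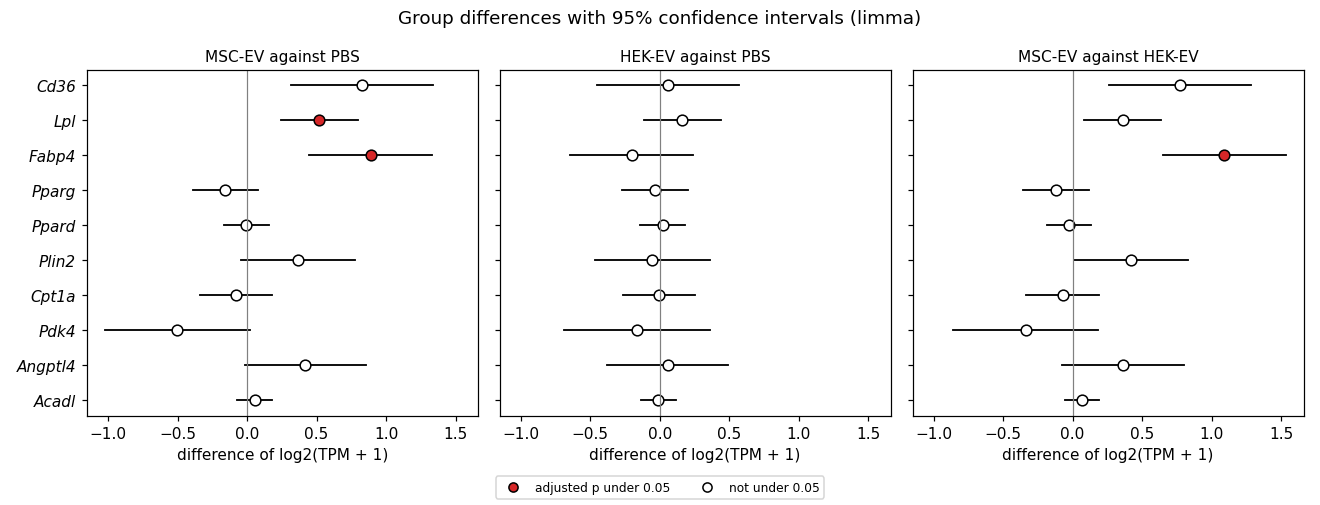
Difference of log2(TPM + 1) (horizontal axis) for each of the 10 genes in the 3 comparisons, with the 95% confidence interval of limma. Red points passed an adjusted p under 0.05: Lpl and Fabp4 for MSC-EV against PBS, and Fabp4 for MSC-EV against HEK-EV.

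Vesicles from HEK cells, the other source, gave 0 calls against PBS among the 10 genes and among all 13820 with limma, 0% called. None of the 10 and 495 of all genes (3.58%) had an unadjusted p under 0.05. In 0 of the 10 genes were the HEK-EV and PBS values free of overlap, beside 5.51% of all genes with HEK-EV higher and 2.29% with it lower. The largest differences were those of Fabp4 (-0.20, SE 0.196), Pdk4 (-0.16, SE 0.232) and Lpl (0.16, SE 0.123), each with adjusted p = 0.999. The 95% interval of Fabp4 ran from -0.64 to 0.24, that of Cd36 from -0.45 to 0.57 and that of Lpl from -0.12 to 0.44. The PBS samples are those used against MSC-EV, so these comparisons are not independent. The sign of 9 of the 10, all except Lpl, turned under at least 1 alternative.

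The comparison of both vesicle sources tests directly whether they differed. Fabp4 alone of the 10 passed, and 817 of the 13820 genes did, 5.91% (1.51% higher and 4.4% lower in MSC-EV). Cd36, Lpl, Fabp4 and Plin2 had 3 MSC-EV values above all 3 HEK-EV values, which held for 12.6% of all genes tested. Against PBS that was so for Cd36, Lpl and Fabp4, beside 11.2% of all genes, and the reverse for Pdk4, beside 14.9%. Both comparisons share the MSC-EV samples. At an unadjusted p under 0.05 there were 4 of the 10 against HEK-EV and 3 against PBS, beside 23.3% and 23.0% of all genes.

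**Figure D3:**
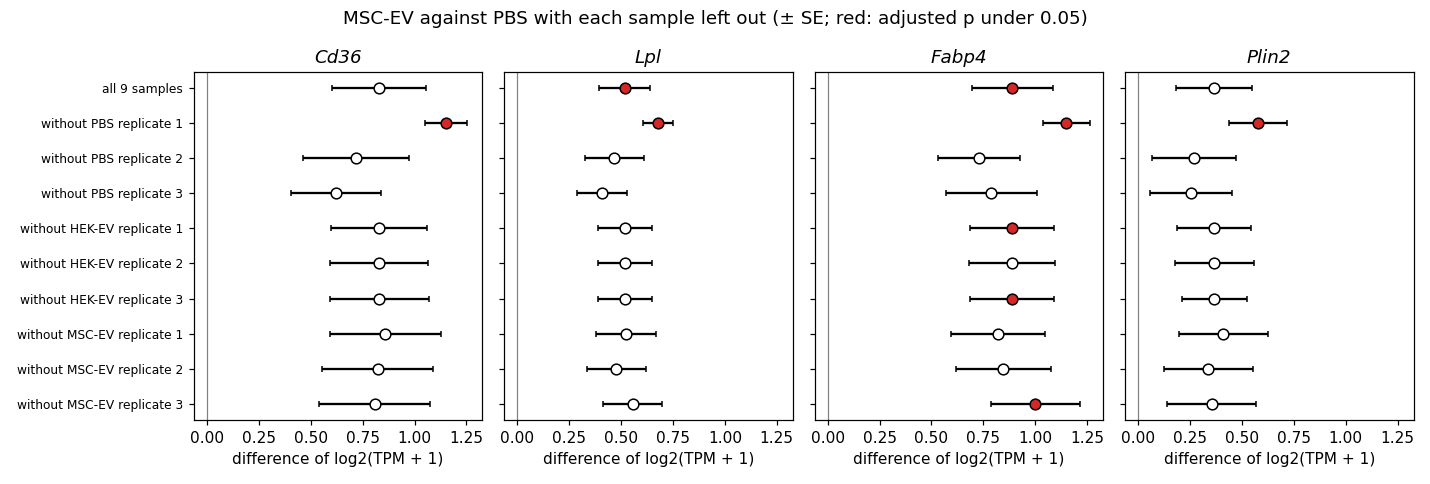
Difference of log2(TPM + 1) between MSC-EV and PBS (horizontal axis, ± SE) for Cd36, Lpl, Fabp4 and Plin2 with all 9 samples and with each left out in turn. Points are red where the adjusted p was under 0.05, and all 4 genes are red without PBS replicate 1. That fit called 1861 of the 13820 genes tested, against 706 with all 9 samples. PBS replicate 1 was the highest PBS sample in each of the 4, so leaving it out raises their differences.

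The rest of the fatty acid pathway was read from 6 lists, which hold the 10 genes and 120 further ones, of which 95 passed the filter. List counts and medians below include the 10 genes. In MSC-EV against PBS, 6 of the 95 passed, 6.32% beside 5.11% of all genes, 4 higher and 2 lower. The count was 18 without PBS replicate 1 and 12 with depth as a covariate, beside 1861 and 1339 of the 13820 genes tested. It was 0 with only the 6 samples compared, and without PBS replicate 2 or 3 or MSC-EV replicate 1 or 2. On FPKM, 5 of 88 passed, 5 higher and 0 lower, beside 477 of 11995 genes tested. In MSC-EV against HEK-EV, 4 of the 95 passed (4.21%, beside 5.91%), 2 in each direction, and in HEK-EV against PBS 0 did. Between the vesicle sources the count was 15 with depth, 13 with only the 6 samples compared and 11 without PBS replicate 1. Among all 13820 genes tested it was 1449, 1098 and 1369 in the same order. Of the 95, 0 passed without any 1 HEK-EV sample or without MSC-EV replicate 1 or 2. On FPKM, 4 of 88 passed, 4 higher and 0 lower in MSC-EV, beside 436 of 11995 genes tested. With the acinar transcripts as a term 0 of the 95 passed in any comparison.

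In the uptake, binding and activation list, 3 of the 19 genes that passed the filter rose against PBS and 0 fell, beside 1.86% and 3.25% of all genes. Differences were above 0 for 13 and below 0 for 6 (median 0.07, against 0.01 over all genes). Besides Lpl and Fabp4 this was Fabp5, the epidermal fatty-acid-binding protein, close kin of Fabp4 and its neighbour on chromosome 3 (10012585 to 10016610). It measured 394, 146 and 167 TPM in the PBS samples. HEK-EV samples gave 243, 228 and 232 TPM, and MSC-EV samples 1121, 1039 and 608 TPM, above all the others. The difference was 2.06 from PBS (SE 0.347, adjusted p = 0.0231) and 1.92 from HEK-EV (SE 0.347, adjusted p = 0.0234), the largest in these lists. A pseudogene copy, Fabp5l2, is annotated, so its value is uncertain to that extent. The most abundant other gene was Lipa, lysosomal acid lipase, at 583 TPM on average.

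PPAR receptors, RXR partners and cofactors did not pass in either direction. Of these 15 genes, 3 were above and 12 below 0 in MSC-EV against PBS (median -0.14, against 0.01 over all genes). Apart from Pparg and Ppard, the most abundant were Ncoa3, a coactivator, at 104 TPM and Rxra, the RXR partner, at 68.8 TPM. In the lipid droplet list of 19 genes, Lipe, hormone-sensitive lipase, fell from 32.3 ± 4.42 to 23.6 ± 2.0 TPM (SD, n = 3; -0.43, SE 0.104, limma adjusted p = 0.0477). HEK-EV averaged 30.6 ± 1.74 TPM. That call was kept without PBS replicate 1 and lost without each of the other 8 samples in turn (adjusted p from 0.0581 to 0.182), on FPKM (0.0675), with median-of-ratios scaling (0.0625), without the filter (0.0912), with the replicate block (0.0923) and with only the 6 samples compared (0.0878). Lipe overlaps another annotated gene. Apart from Plin2, G0s2, an inhibitor of triglyceride lipase, and Soat1, which esterifies cholesterol, were the most abundant at 277 and 133 TPM.

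Of 22 mitochondrial oxidation genes 18 had a difference above 0 (median 0.14, against 0.01 over all genes), and only Crat passed. The median over all genes itself moved to 0.04 on FPKM and 0.10 with depth. Crat, carnitine acetyltransferase, averaged 30.2 ± 1.89 TPM in PBS, 35.2 ± 1.87 in HEK-EV and 37.9 ± 0.522 in MSC-EV (SD, n = 3; 0.32 against PBS, SE 0.0653, limma adjusted p = 0.0313). The difference of MSC-EV from HEK-EV was 0.10 and did not pass. Etfb and Hadha, an electron carrier subunit and a subunit of the trifunctional enzyme, were the most abundant at 116 and 114 TPM. Mitochondrial transcripts took 7.55% to 7.90% of TPM in the MSC-EV samples and 5.44% to 6.48% in the others. The part of this in the oxidation genes was not tested.

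In the peroxisomal list of 13, Decr2, a reductase of unsaturated fatty acids, rose against PBS from 14.8 ± 1.34 to 19.5 ± 0.504 TPM (SD, n = 3; 0.38, SE 0.0749, limma adjusted p = 0.0293). Hsd17b4 and Cat were the most abundant at 122 and 112 TPM. Crat and Decr2 lost the call against PBS without PBS replicate 2 or 3, HEK-EV replicate 2 or any 1 MSC-EV sample (adjusted p from 0.051 to 0.139). Both lost it with the replicate block (0.0555 and 0.0558) and with only the 6 samples compared (0.0659 and 0.0669). Crat also lost it with median-of-ratios scaling (0.0556) and with depth (0.148). Crat overlaps a neighbouring gene, Dolpp1.

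Among 17 other PPAR-responsive genes, Fads2, a desaturase, rose from a low level, 1.69 ± 0.188 TPM in PBS and 1.91 ± 0.124 in HEK-EV to 3.83 ± 0.780 in MSC-EV (SD, n = 3). The differences were 0.83 (SE 0.135, limma adjusted p = 0.0213) and 0.72 (SE 0.135, limma adjusted p = 0.0248). Tgm2, a transglutaminase, was at 329 ± 16.9, 362 ± 26.2 and 274 ± 7.50 TPM (SD, n = 3) in PBS, HEK-EV and MSC-EV, in that order. It was lower in MSC-EV than in HEK-EV (-0.40, SE 0.0654, limma adjusted p = 0.0207). Against PBS it did not pass (-0.26, adjusted p = 0.0537). Ucp2, the mitochondrial carrier of myeloid cells, was the most abundant at 1479 TPM. The calls of Fabp5 and Fads2 against PBS were lost without PBS replicate 2 or 3 or MSC-EV replicate 1 or 2 (adjusted p from 0.0521 to 0.101), and with only the 6 samples compared (0.0565 and 0.0562). Fabp5 also lost it without the filter (0.0512). The calls of Fabp5, Fads2 and Tgm2 against HEK-EV were lost without any 1 HEK-EV sample or MSC-EV replicate 1 or 2 (adjusted p from 0.0531 to 0.101), that of Tgm2 also on FPKM (0.0545), and those of Fabp5 (0.0548) and Fads2 (0.0528) also without the filter. With depth the call of Fads2 against PBS was lost (0.0652).

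**Figure D4:**
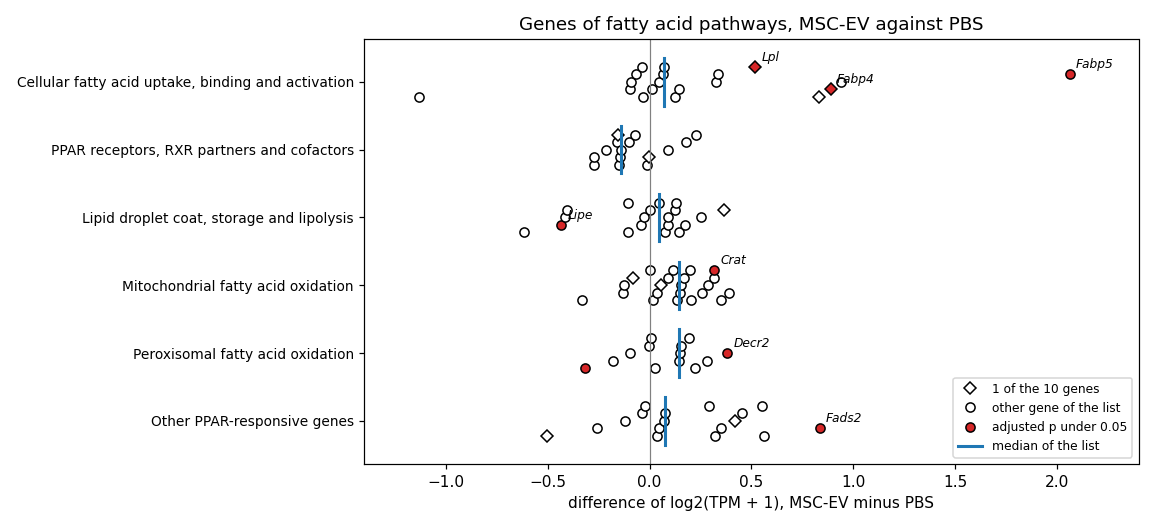
Difference of log2(TPM + 1) between MSC-EV and PBS (horizontal axis) for each gene past the filter in 6 fatty acid lists, with the 10 genes as diamonds and the median of each list as a blue bar. Fabp5 lies furthest to the right at 2.06, and the list medians lie between -0.14 and 0.15.

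Genes of most similar pattern were sought for Fabp4 and Lpl among 9845 other genes. Likeness was the root mean square difference of the log2 profiles over the 9 samples, each centred on its own mean. For Lpl the nearest were Npc1, the lysosomal cholesterol exporter (0.0529), Osbpl8, an oxysterol-binding-related protein (0.0561), and Dnmt3a, a DNA methyltransferase (0.0614). For Fabp4 they were F7, coagulation factor VII (0.102), Gpr157, a receptor (0.11), and Ctsk, a cysteine protease (0.125). Among the 10 genes Ppard and Acadl were nearest (0.0909), both nearly level across samples. Plin2 and Angptl4 were 0.108 apart, both highest in PBS replicate 1, HEK-EV replicate 3 and the MSC-EV samples, while Cd36 and Fabp4 were 0.206 apart. Npc1, Osbpl8 and Dnmt3a overlap other annotated genes.

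Cd36, Lpl, Fabp4 and Plin2 are also expressed by cells other than myeloid ones, and in bulk samples fewer cells of a type and less RNA per cell cannot be told apart. None of 10 adipocyte markers reached 1 TPM in any sample, and Lep was at 0 throughout. The 12 endothelial markers, all past the filter, summed to 405 to 497 TPM in PBS, 249.9 to 579 in HEK-EV and 163 to 322 in MSC-EV. Gpihbp1, which anchors lipoprotein lipase on capillaries, averaged 43.2 ± 2.64, 41.9 ± 23.1 and 19.9 ± 6.85 TPM (SD, n = 3) in the same order, and its difference of MSC-EV from PBS did not pass (-1.13, limma adjusted p = 0.117). The 8 Kupffer cell markers summed to 2683 to 3232, 1818 to 3784 and 1496 to 2634 TPM, and 0 of them passed in MSC-EV against PBS.

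Of the other lists, 4 had summed levels in MSC-EV outside the range of both other groups. Calls below are for MSC-EV against PBS, in which 1.86% of all genes rose and 3.25% fell. Among all genes only 5 were called with the acinar term, and 5 and 7 without PBS replicates 2 and 3. The 9 lipid-associated macrophage markers summed to 14325 to 17142 TPM in PBS, 16511 to 18246 in HEK-EV and 26834 to 30859 in MSC-EV, and 7 of 9 rose against PBS. The 10 Ly6C-high monocyte markers summed to 6473 to 12950, 8156 to 10383 and 3974 to 4904 TPM, and 6 of 10 fell. The 20 hepatocyte markers summed to 476 to 574, 391 to 623 and 792 to 966 TPM, and 4 rose. Of 10 biliary markers, which summed to 11.2 to 13.7, 13.7 to 17.8 and 23.4 to 33.8 TPM, 7 rose. Summed levels of 12 neutrophil markers were 3178 to 5964, 5264 to 7390 and 3103 to 3917 TPM. Of the 12, 1 rose and 0 fell. That was Ltf (0.87, limma adjusted p = 0.0348), from 2.94 ± 0.0545 to 6.30 ± 1.38 TPM (SD, n = 3). S100a9, the most abundant of the 12, was at 1382 to 2723, 2512 to 3330 and 1372 to 1842 TPM and did not pass. Summed levels of 10 stellate and fibroblast markers were 13 to 23.4, 14.5 to 21.4 and 17.3 to 35.9 TPM, with 0 called, and both of these lists overlapped between MSC-EV and PBS. The part of any of these cells in the results above was not tested.

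**Figure D5:**
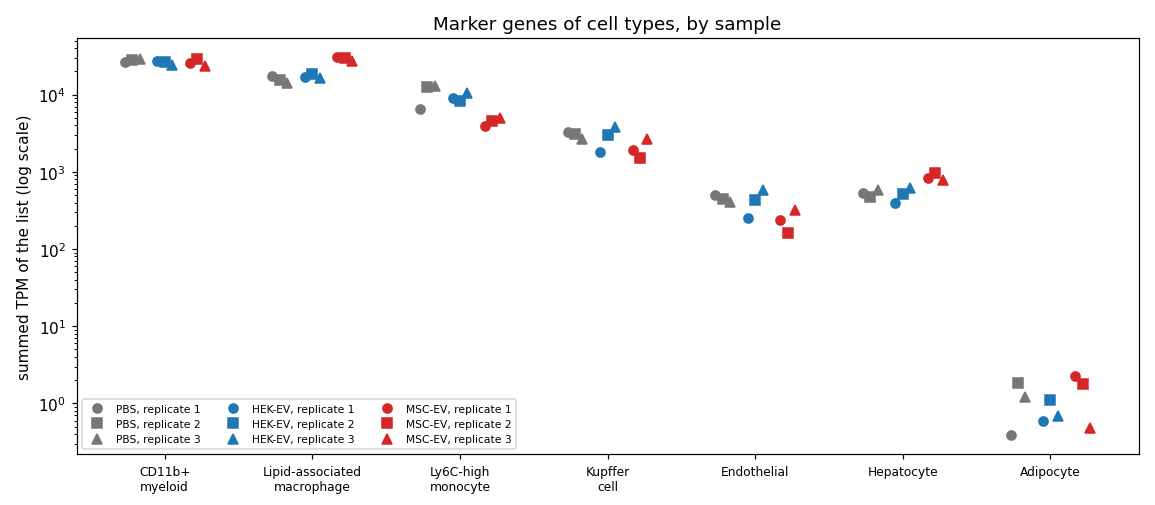
Summed TPM (vertical axis, log scale) of 7 lists of marker genes in every sample of the PBS (grey), HEK-EV (blue) and MSC-EV (red) groups. Adipocyte markers stay under 2.3 TPM, and the lipid-associated macrophage sum is highest in the 3 MSC-EV samples.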

How the data were processed

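RNA of CD11b+ cells was sequenced from 9 liver samples after TruSeq Stranded mRNA preparation, per the labels' protocols. The submitters' processing notes name HISAT2 2.1.0, StringTie and mm10, with no annotation or strand setting. TPM, as deposited by the authors, summed to 1000000 per sample. FPKM were deposited by the authors beside them. Coverage is the mean read signal of a gene, per the file headers. Gene IDs were matched to RefSeq GRCm38.p6 (45679 of 45777, 99.79%), whose start and end equalled the files' for 96.4%, and rows of an ID were summed. Coordinates are the files' own.

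The 13820 genes that reached 1 TPM in 3 or more samples were fitted as log2(TPM + 1) with limma 3.58.1 in R 4.3.3 (eBayes with a trend), all 9 samples in 1 fit, two-sided, with Benjamini-Hochberg adjustment over all genes and a threshold of 0.05. The fit was tested on simulated data. Exact permutation of 3 against 3 samples cannot go below 0.1 and was not used. Alternatives changed 1 choice each: pseudocount (0.1), filter (none, or 5 TPM), unit (FPKM) or scaling (median of ratios), or used a replicate block, only the 6 samples compared, the acinar transcripts as a term (samples above 10 times the lowest), depth as a covariate, and each sample left out. Their use on the other pathway genes was added after the data were seen.

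The 10 genes and the lists were chosen with earlier results of these data known. Named in each list, the 10 genes aside, were up to 4 genes called against PBS, up to 2 more called against HEK-EV and the 2 of highest mean. Similar patterns were sought for each of the 10 genes called in any comparison, 3 apiece, among genes with a mean of 5 TPM or more in some group, leaving out predicted genes and Riken clones. Gpihbp1, Lep, Ppara, Itgam, Itgb2, Ptprc, Cd68, Ltf, S100a9, Ctrb1, Pnlip and the genes of the closing observations are outside that rule and were picked with their values in view. A gene of the lists that passed is counted in them and is not reported here. Python 3.11.15 with numpy 2.4.6, pandas 2.3.3 and matplotlib 3.10.9 was used for values and figures.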

Additional observations from a re-analysis of the deposited data

Results flagged for a closer look

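For 4 of the genes named, the effects of the 2 vesicle sources against PBS differed when tested against each other, as MSC-EV minus HEK-EV on the log2 scale with limma. Fabp4 differed by 1.09 (adjusted p = 0.0233) and Fabp5 by 1.92 (adjusted p = 0.0234), each higher in 3 of 3 MSC-EV samples than in any HEK-EV sample. Fads2 differed by 0.72 (adjusted p = 0.0248), in the same way. Tgm2 differed by -0.40 (adjusted p = 0.0207), lower in 3 of 3 MSC-EV samples than in any HEK-EV sample.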

How the results depend on the processing

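Replicate numbers are shared by the groups, but same-numbered samples did not deviate together (correlations of deviations from the group means from -0.499 to 0.058). The highest correlation was between differently numbered samples, HEK-EV replicate 2 and MSC-EV replicate 3 (0.547). With 3 samples per group this cannot tell whether a number also stands for a shared day or cage. With the replicate block, genes called were 404 for MSC-EV against PBS and 448 for MSC-EV against HEK-EV, and 0 and 1 of the 10 genes. For MSC-EV against PBS, genes called were 361 without the filter, 77 with only the 6 samples compared, 5 with the acinar term and 1339 with depth, and 5 to 1861 with a sample left out (1861 without PBS replicate 1, 5 and 7 without PBS replicates 2 and 3, 297 without HEK-EV replicate 2, and 25, 59 and 469 without MSC-EV replicates 1, 2 and 3). Of the 10 genes 0 were called without the filter, with the 6 samples or with the acinar term, and 0 to 4 with a sample left out. For HEK-EV against PBS, 4 genes were called without the filter and 0 to 2 with a sample left out. For MSC-EV against HEK-EV, genes called were 387 without the filter, 436 on FPKM, 509 with median-of-ratios scaling, 0 with the acinar term and 1449 with depth, and 0 to 1369 with a sample left out (1369 without PBS replicate 1, 1, 0 and 31 without HEK-EV replicates 1, 2 and 3, and 0 without MSC-EV replicate 1 or 2). Of the 10 genes 0 were called without the filter or with the acinar term, 3 with the 6 samples and 4 with depth, and 0 to 3 with a sample left out. Higher genes made up, of all calls, 36.4% on TPM, 58.7% on FPKM and 47.2% with median-of-ratios scaling against PBS, and 25.6%, 54.8% and 46.4% against HEK-EV.

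Among the 10 genes, signs turned only for differences that were not called. For MSC-EV against PBS, Ppard was 0.0364 on FPKM and 0.054 with the acinar term, Acadl -0.00785 with the acinar term and Cpt1a 0.21 with depth. With a sample left out Ppard ran from -0.0674 to 0.034 and Cpt1a from -0.20 to 0.0199. For HEK-EV against PBS, Ppard was -0.00239 on FPKM, -0.0128 with median-of-ratios scaling and -0.0152 with depth, and Pparg 0.00736 with the acinar term. With depth Fabp4 was 0.11, Plin2 0.21, Cpt1a 0.15 and Pdk4 0.0183. With a sample left out the ranges were -0.15 to 0.38 (Cd36), -0.36 to 0.0574 (Fabp4), -0.12 to 0.0424 (Pparg), -0.00545 to 0.0495 (Ppard), -0.21 to 0.16 (Plin2), -0.12 to 0.0926 (Cpt1a), -0.34 to 0.00968 (Pdk4), -0.11 to 0.24 (Angptl4) and -0.038 to 0.0232 (Acadl). For MSC-EV against HEK-EV, Ppard was 0.0388 on FPKM, 0.00463 with median-of-ratios scaling and 0.00546 with the acinar term, and -0.0869 to 0.0145 with a sample left out, and Cpt1a was 0.0516 with depth. Why these values moved was not tested. Cd36, Lpl, Fabp4, Plin2 and Angptl4 kept their sign against PBS and HEK-EV in all 18 alternatives of MSC-EV, and Pdk4 in the 16 that could be fitted, since a minimum of 5 TPM left it out, as did FPKM.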

Other observations

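Of the fatty acid genes below the filter, 2 were called higher in MSC-EV than in PBS once the filter was dropped (threshold 0.05). Ppargc1a, the coactivator of PPAR receptors in oxidative tissues, was at 0.0151 to 0.0478 TPM in PBS, 0.0471 to 0.0579 in HEK-EV and 0.0991 to 0.112 in MSC-EV (limma adjusted p = 0.0348). Vldlr, the receptor of very-low-density lipoprotein, was at 0.0231 to 0.0763, 0.0448 to 0.0919 and 0.158 to 0.255 TPM (limma adjusted p = 0.0491). Both levels are far under 1 TPM, and without counts their error is unknown. Cpt1c, the brain form of carnitine palmitoyltransferase, was at 0.38 to 0.564 TPM in PBS and 0.621 to 0.821 in MSC-EV, and did not pass (adjusted p = 0.141).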
